A study of Homo sapiens with 8 samples.

Results

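The guides described here are 164 CRISPR guides against KMT2D that a pooled tiling screen placed between coding nucleotides 3901 and 5100, taken as residues 1301 to 1700. They are 164 of 2436 guides against KMT2D and of 5995 guides in the pool. The rule that selects them uses the number in the guide name alone and no read count, although the stretch was set with earlier results of these data known. The cells were KPL-1, a line derived from human breast cancer, carrying a Cas9 that doxycycline switches on (iCas9). The same guide pool (sgKMT2pool) was sequenced in 1 library at day 14 of doxycycline, labelled as knockout of functional domains, and in 1 library at day 0, labelled WT. The labels give no clone, no number of cells and no repeat of either library. The study aimed to find functional domains of SETD1A, a relative of KMT2D that serves the same general reaction.

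KMT2D, encoded on chromosome 12, is a large histone methyltransferase that places methyl groups on histone H3, mainly at enhancers, as part of a complex with WDR5, RBBP5, ASH2L and DPY30. Its catalytic SET domain lies at the far C-terminus. PHD fingers, small zinc-binding folds that often read histone tails, occur in KMT2D in clusters, and the stretch these guides cover is labelled as the second cluster. In a tiling screen each guide directs Cas9 to cut at one place along the coding sequence. A cut repaired with a frameshift ends the protein, while a repair that keeps the reading frame removes or adds a few residues. Guides that slow the growth or survival of their cells become rarer in the pool over time.

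The number in each name was read as a nucleotide of the coding sequence, and residues were counted from it. The table does not define that number. The highest number among KMT2D guides was 16656, which would be residue 5552, slightly beyond the end of the reference protein as generally numbered, so residues are approximate. Which guide falls inside which PHD finger was not analysed here, and the name of the cluster was not checked against the protein sequence. The label of the tissue was not tested with markers. The pool libraries count guides and not transcripts, and the RNA libraries of the series were not used for this.

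The library of day 14 held 10255022 reads and that of day 0 held 10145466 reads. The change of a guide is the log2 ratio of its CPM (reads scaled to a common library total) plus 1, day 14 over day 0, minus the median of the 200 guides whose names begin with HGLibA. These are taken as controls without a target in the human genome from the naming of a known library. A change of -1 therefore means that the share of a guide was halved relative to those controls. Of the 164 guides, 163 had at least 30 reads at day 0 and entered all summaries. Each day has 1 library and no replicate, so no p-value is given. Guides to 1 gene are not replicates of a condition, and their spread is a spread between cut sites and guides.

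Guides in this stretch of KMT2D were lost from the pool. Their median change was -1.76 log2, beside -0.92 over all 5991 guides of the pool. A change of -1.76 leaves 29.5% of the day 0 share relative to the HGLibA controls. The quartiles of the guides lay at -2.47 and -1.06, with an SD of 1.01 over 163 guides. Single guides ran from -5.31 to 0.82. In reads, the 163 guides together had 182400 reads at day 14, against 295166 reads at day 0, or 1.78% of the day 14 library against 2.91% of the day 0 library. The HGLibA guides together had 5.49% of the day 14 library against 3.17% of the day 0 library. Reads were fewer at day 14 than at day 0 for 140 of the 163 guides of the stretch, against 1631 of the 2272 other KMT2D guides, 3350 of all 5991 guides and 9 of the 200 HGLibA guides.

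A change of -1 or lower was reached by 127 of the 163 guides (77.9%), beside 46.7% of all 5991 guides of the pool and 4 of the 200 HGLibA guides. A change of -0.5 or lower was reached by 147 guides (90.2%), beside 65.3% of all guides. A change of -2 or lower, a threshold chosen after the values were seen, was reached by 67 guides (41.1%), beside 16.6% of all guides. At 0.5 or higher stood 3 guides (1.84%), a share near the 2.57% of all guides. These counts depend on the centre. With the median of all guides in place of the HGLibA median, 71 guides stood at -1 or lower. At -2 or lower stood 13, and at 0.5 or higher 14. The shares of all guides given above hold for the HGLibA centre only. They were not counted under the other centre, so these 3 counts have no background beside them. The lowest HGLibA guide stood at -1.88, and 71 of the 163 guides (43.6%) lay below it, beside 32.0% of the other KMT2D guides. At the other end, 6 guides lay within the HGLibA quartiles of -0.27 to 0.22, and 10 lay above the HGLibA median. These counts against the HGLibA range were not made over all 5991 guides, whose quartiles stood at -1.66 and -0.27.

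Controls in the same 2 libraries set the scale of these values. The 25 guides against the essential genes PCNA, POLR2A, POLR2L, RPA3 and SF3B3, which serve DNA replication, transcription and splicing, had a median of -3.63. Of the 163 KMT2D guides, 5 stood at or below that value, a count that was not made over all guides. The 5 guides to AAVS1, a site in common use for inserting genes, had a median of -1.01, with a range of -1.46 to 0.18. The median of the 163 guides lay below every one of these 5 guides. The part of DNA cutting itself in the values of the KMT2D guides was not tested.

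The gene was transcribed in this line whichever of its older names applies. MLL2 stood at 19.8, 21.5 and 20.9 TPM (a transcript level scaled for length and library total) in the 3 libraries of control cells with an empty guide vector (sgEmpty, day 7 of doxycycline), and MLL4 stood at 16.8, 15.7 and 17.3 TPM. The reference table gives both older names to both KMT2D and its relative KMT2B, so the expression table does not show which row is KMT2D.

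The median change differed between windows of the stretch, and its last 100 residues had the highest median. Residues 1301 to 1400 had a median of -2.08 over 37 guides, with single guides between -3.88 and 0.36. Residues 1401 to 1500 had a median of -1.84 over 41 guides, with single guides between -5.31 and 0.62. Residues 1501 to 1600 had a median of -1.96 over 36 guides, with single guides between -3.40 and -0.37. Residues 1601 to 1700 had a median of -1.28 over 49 guides, with single guides between -2.88 and 0.82. The first 3 of these windows therefore kept 23.7%, 27.9% and 25.6% of the day 0 share at their medians, and the last kept 41.2%. The single guides of all 4 windows overlapped widely.

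The share of guides that were lost was also lowest in the last window. At -2 or lower stood 20 of 37 guides in residues 1301 to 1400, 19 of 41 in residues 1401 to 1500, 17 of 36 in residues 1501 to 1600 and 11 of 49 in residues 1601 to 1700. At -1 or lower stood 75.7%, 82.9%, 88.9% and 67.3% of the guides of the 4 windows in that order. Of the 10 lowest guides of the whole stretch, 2, 6, 2 and 0 lay in the 4 windows. Guides above the HGLibA median numbered 2, 1, 0 and 7. Day 0 reads of the 4 windows had medians of 1565, 2027, 1534 and 1635 reads per guide.

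Windows of 50 residues placed the strongest loss at residues 1451 to 1500, where 24 guides had a median of -2.38, and next at residues 1351 to 1400, where 20 guides had a median of -2.28. Between them, the 17 guides of residues 1401 to 1450 had a median of -1.59. Residues 1301 to 1350 stood at -2.06 (17 guides), residues 1501 to 1550 at -2.06 (17 guides) and residues 1551 to 1600 at -1.95 (19 guides). The last 2 windows were the highest, at -1.30 for residues 1601 to 1650 (26 guides) and -1.16 for residues 1651 to 1700 (23 guides). In residues 1501 to 1550 each of the 17 guides was at -1 or lower.

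The longest unbroken run of guides at -1 or lower crossed the middle of the stretch. From KMT2D_4466 to KMT2D_4645, at residues 1489 to 1549, 21 guides in a row stood between -3.64 and -1.14, with a median of -2.06. A shorter and denser run lay before it, at residues 1460 to 1467. There 10 guides from KMT2D_4380 to KMT2D_4399 stood between -3.89 and -1.13, with a median of -2.41. Between these runs lay KMT2D_4418 at -0.91 and KMT2D_4458 at 0.62, and also lower guides, among them KMT2D_4437 at -5.31. Another 10 guides in a row, from KMT2D_4678 to KMT2D_4751 at residues 1560 to 1584, stood between -2.85 and -1.13. These runs were picked from the values and carry no test.

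The lowest single guide was KMT2D_4437, at residue 1479. It had 21 reads at day 14, against 725 reads at day 0, a change of -5.31 (95% counting interval -6.57 to -5.24, computed without the added 1). Its neighbour on either side was also lost. KMT2D_4436 had 219 reads at day 14, against 836 reads at day 0, a change of -2.64. KMT2D_4438 had 234 reads at day 14, against 1326 reads at day 0, a change of -3.21 (-3.47 to -3.06). All 3 thus fell beyond the lowest HGLibA guide, but the middle one kept 2.52% of its day 0 share and the outer ones 16.0% and 10.8%. These shares include the added 1, which raises that of the middle guide most, since it had only 2.05 CPM at day 14.

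Around residue 1486 the guides disagreed. KMT2D_4456, the second lowest, had 207 reads at day 14, against 2409 reads at day 0, a change of -4.23 (-4.51 to -4.09). KMT2D_4457 had 355 reads at day 14, against 1098 reads at day 0, a change of -2.36. KMT2D_4458, in the same codon by its number, had 4262 reads at day 14, against 1630 reads at day 0, a change of 0.62 (0.55 to 0.71), the third highest of the stretch. The intervals of the lowest and the highest of these guides do not overlap. Their sequences and strands were not analysed here, so guides 1 base apart may differ in sequence as well as in cut site.

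The other guides among the 10 lowest were spread over residues 1365 to 1526. KMT2D_4381, at residue 1461, had 209 reads at day 14, against 1913 reads at day 0, a change of -3.89 (-4.16 to -3.74). Its neighbours KMT2D_4380, KMT2D_4382 and KMT2D_4383 stood at -2.78, -2.87 and -2.41, so this codon and the base before it held 4 guides that were all strongly lost. KMT2D_4093, at residue 1365, had 113 reads at day 14, against 1065 reads at day 0, a change of -3.88 (-4.29 to -3.71). KMT2D_4466, at residue 1489, had 96 reads at day 14, against 774 reads at day 0, a change of -3.64 (-4.09 to -3.46).

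KMT2D_4159, at residue 1387, had 293 reads at day 14, against 1914 reads at day 0, a change of -3.42 (-3.65 to -3.29). It too had a neighbour that was hardly lost, since KMT2D_4160 had 2989 reads at day 14, against 2031 reads at day 0, a change of -0.20 (-0.28 to -0.12). KMT2D_4158, on the other side, stood at -2.21. At residues 1525 and 1526 KMT2D_4574 stood at -3.38 (169 reads at day 14, against 1094 at day 0) and KMT2D_4577 at -3.40 (159 reads at day 14, against 1044 at day 0). These 2 guides differed by less than their counting intervals, of -3.69 to -3.22 and -3.72 to -3.23, and KMT2D_4578, 1 base further, stood at -1.67. KMT2D_4315, at residue 1439, was the last of the 10, with 622 reads at day 14, against 3243 reads at day 0, a change of -3.12 (-3.27 to -3.02).

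The 5 highest guides gained share against the controls, and 3 of them lay in residues 1601 to 1700. KMT2D_5073, at residue 1691, had 4342 reads at day 14, against 1450 reads at day 0, a change of 0.82 (0.74 to 0.91). KMT2D_5076, 3 bases further, had 932 reads at day 14, against 4084 reads at day 0, a change of -2.88 (-2.99 to -2.79). This pair of neighbours had the widest gap of any in the stretch at most 3 bases apart, at 3.70. KMT2D_4914, at residue 1638, had 2452 reads at day 14, against 833 reads at day 0, a change of 0.79 (0.69 to 0.92), and its neighbour KMT2D_4913 stood at -0.47. KMT2D_4850, at residue 1617, had 3651 reads at day 14, against 1534 reads at day 0, a change of 0.49 (0.41 to 0.58). KMT2D_3978, at residue 1326, had 3784 reads at day 14, against 1739 reads at day 0, a change of 0.36 (0.28 to 0.45). KMT2D_4458, described above, completes the 5. The highest HGLibA guide stood at 1.69, above each of them.

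Single guides were read deeply enough that counting error was small beside their spread. The 163 guides had between 21 and 4843 reads at day 14 and between 62 and 4968 reads at day 0, and the median width of the 95% counting interval was 0.24 log2. The interval lay below 0 for 153 guides, above 0 for 6 and held 0 for 4. This count was not made over all 5991 guides, whose median change was -0.92, so it does not set the stretch apart. The interval was widest, at 1.32, for KMT2D_4437 with its 21 reads. The thinnest guide at day 0, KMT2D_5087 at residue 1696, had 64 reads at day 14, against 62 reads at day 0, a change of -0.72 (-1.24 to -0.18). KMT2D_4154, at residue 1385, was the guide left out, with 0 reads at day 14, against 20 reads at day 0. A count of 0 allows up to 0.293 CPM at day 14 (3 reads of the library), against 1.97 CPM at day 0. Reads carry no molecular identifiers, so intervals and floors cover counting error only.

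Neighbouring guides often differed. Among 64 pairs of neighbours at most 3 bases apart, the median difference between the 2 guides was 0.84 log2, and it was over 1 in 27 pairs. Over all 13203 pairs of the 163 guides the median difference was 0.95, and it was over 1 in 6304 pairs. From one guide to the next along the gene, the changes had a Pearson r of 0.14 and a Spearman rho of 0.15 over 162 steps, which share both libraries and most guides. The change had a Pearson r of -0.032 and a Spearman rho of -0.023 with the day 0 reads over the 163 guides. By the base of the codon that the number falls on, the medians were -1.74 for the first base (66 guides), -1.78 for the second (58 guides) and -1.76 for the third (39 guides). The 3 guides at 0.5 or higher all carried numbers of the third base, but the next highest, KMT2D_4850 at 0.49, carried one of the second. That count rests on 3 guides and on the threshold.

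Coverage of the stretch was dense. The 163 guides stood at 161 positions in 129 of the 400 residues, with a median step of 5 bases. The longest step was 33 bases, between KMT2D_4328 and KMT2D_4361 at residues 1443 and 1454. Names were shared by 2 pairs of rows, which were kept as separate guides. The rows named KMT2D_4393 stood at -1.74 and -1.84, and those named KMT2D_4841 at -1.18 and -1.55. At the borders, the first guide inside, KMT2D_3901, stood at -0.56, and the last before it, KMT2D_3899, at -0.59. The last guide inside, KMT2D_5095, stood at -0.37, and the first after it, KMT2D_5106, at -1.39.

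Against the rest of KMT2D the stretch had a lower median, by 0.36 log2: -1.76 over its 163 guides, against -1.40 over the other 2272 guides of the gene, 3 of which are named for 2 positions. The difference has no test, since both values come from the same 2 libraries. Guides before the stretch had a median of -1.31 (622 guides) and guides after it of -1.46 (1647 guides). At -1 or lower stood 77.9% of the guides in the stretch, against 64.8% of the other KMT2D guides, and at -2 or lower 41.1%, against 28.0%. The share below the lowest HGLibA guide was 43.6% in the stretch, against 32.0% of the other KMT2D guides. At 0.5 or higher stood 1.84% in the stretch, against 1.36% of the other KMT2D guides.

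Among 53 windows of 100 residues of KMT2D that held at least 20 guides, the 4 windows of the stretch had these ranks, counted from the lowest median: 1 for residues 1301 to 1400, 10 for residues 1401 to 1500, 2 for residues 1501 to 1600 and 35 for residues 1601 to 1700. The medians of the 49 windows outside ran from -1.93 to -0.89, and 9 of them were at or below the median of the stretch as a whole. The medians of residues 1301 to 1400 and 1501 to 1600 lay below the lowest of these 49 windows. The medians of the other 2 windows of the stretch lay inside their range. The order-statistic interval of the median, which reflects the spread of guides, was -2.56 to -1.48 for residues 1301 to 1400. For residues 1501 to 1600 it was -2.26 to -1.73. Both intervals held -1.93, the lowest median outside, so these ranks do not separate the 2 windows from the lowest windows outside. The 3 windows of KMT2D with fewer than 20 guides were left out of the ranks, and one of them, residues 201 to 300, had a lower median than any window of the stretch, at -2.34 over 7 guides.

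The relative KMT2C, which acts in a like complex and also has PHD fingers near its N-terminus, had a median closer to 0, again without a test. Its 156 guides in residues 1 to 1200 had a median of -0.90, against -1.76 in the KMT2D stretch, a difference of -0.86. At -1 or lower stood 77.9% of the guides in the KMT2D stretch, against 44.9% of these KMT2C guides. KMT2D guides outside the stretch, at a median of -1.40, were also lower than these KMT2C guides. KMT2C as a whole had a median of -0.84 over 1331 guides. The whole of SETD1A, the subject of the study, had a median of -1.23 over 628 guides, and its paralog SETD1B, named KMT2G in the table, had -0.25 over 744 guides.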

How the data were processed

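The authors deposited raw read counts per guide for both pool libraries and TPM values per gene for the RNA libraries. How guides were amplified and counted is not described in the labels. The row of column totals was left out. Guide changes were computed in Python 3.11.15 with pandas 2.3.3 and scipy 1.17.1, as the log2 ratio of CPM plus 1, centred on the HGLibA median, for guides with at least 30 day 0 reads. Counting intervals are exact Clopper-Pearson 95% intervals of the reads of a guide. The code was tested on simulated data with known shifts. Alternatives changed the pseudocount, the minimum, the centring (including TMM factors of edgeR 4.0.16), the treatment of shared names, the summary and the borders. Guides were named by rule, as the 10 lowest, the 5 highest, those at the borders and those with too few reads; neighbours, the thinnest guide and runs were added after their values were seen. The stretch, the summaries and the alternatives were chosen with earlier results of these data known, although the rule for members uses no read count. TPM are given as deposited, with no comparison between RNA groups.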

Additional observations from a re-analysis of the deposited data

How the results depend on the processing

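Of 91 values recomputed under alternatives, 66 stayed within the 95% order-statistic interval of their median or within 1.5 times their count, 25 moved and 0 changed sign. Most moves came from centring. Counts at -2 or lower were added after seeing the data. Centred on the median of all guides, the median of the stretch was -0.84, with medians of -1.16, -0.92, -1.05 and -0.36 in its 4 windows of 100 residues from the first to the last, and 13, 71 and 14 guides at -2 or lower, -1 or lower and 0.5 or higher. With TMM factors these values were -0.87, then -1.18, -0.95, -1.07 and -0.39, with 13, 71 and 14 guides. With no centring they were -1.02, then -1.34, -1.10, -1.22 and -0.54, with 24, 83 and 12 guides. These shifts are the same for every guide, so the order of the windows and the difference from other KMT2D guides do not depend on them. The median of all 5991 guides was -0.92 when centred on HGLibA guides. The shares of all guides past each threshold were not counted under the other centres. The 50-residue window from residue 1451, at -2.38, lay outside the interval of the 100-residue window that holds it. The difference between the stretch and other KMT2D guides ran from -0.43 to -0.30 over the alternatives. The planned split of guides by a PHD finger pattern was not run, as no protein sequence was used here. No paired analysis was possible because each day has 1 library.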
